A study of Bos taurus with 8 samples.

Results

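The calgranulins S100A8 (ENSBTAG00000012640), S100A9 (ENSBTAG00000006505) and S100A12 (ENSBTAG00000012638) were followed in blood mononuclear cells of 2 kinds of cattle before and after heat. They are 3 of the 24596 genes in the deposited tables and were found by their Ensembl identifiers; the tables hold identifiers only, so these symbols were assigned to the identifiers beforehand. The groups were Tharparkar, an Indian zebu breed, and crossbred cattle whose parent breeds the labels leave unnamed, each at day 0 (before heat) and at day 7 (after 7 days of heat). Each group is 1 pool of RNA from 5 animals with 2 replicate files, 8 files in all. The labels do not give the age or sex of the animals or the temperature reached, and no animals kept without heat until day 7 were analysed here, so heat and elapsed time cannot be told apart.

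Calgranulins are small calcium-binding proteins of the S100 family, stored at high amounts in the cytosol of neutrophils and also made by monocytes. S100A8 and S100A9 pair up as calprotectin, which binds zinc and manganese and so withholds them from microbes. S100A12, also called EN-RAGE, forms complexes of its own. Once released from damaged or activated cells, the proteins act as alarmins, danger signals read by the receptors TLR4 and RAGE. Neutrophils and monocytes both transcribe these genes, so their RNA in a mononuclear preparation can come from monocytes, from neutrophils left in the preparation, or from both. In the RefSeq gene table of assembly ARS-UCD2.0 the 3 genes are direct neighbours, in the order S100A8, S100A12, S100A9.

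The total of expected counts (estimated reads per gene) was between 5173115 and 8593506 per file, and lowest in Tharparkar at day 7. The 2 files of each group agreed more closely than independent reads of 1 library would. Their chi-square ratio, which is 1 for independent reads, was between 0.0762 and 0.112. They were counted as 1 library, so n = 1 per group, no test between groups was made, and the spread between animals was not measured. All intervals below are 95% intervals that cover counting error only. No identifier could be paired with a symbol beyond the 3 calgranulins, so the lists of neutrophil, monocyte, lymphocyte, platelet and red cell markers, of other S100 genes and of calgranulin receptors were not evaluated, and neither the labelled cell type nor the part that leftover granulocytes play in these levels was tested. In pooled bulk RNA, fewer calgranulin-making cells and less calgranulin RNA per cell cannot be told apart.

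All 3 genes were among the most abundant transcripts of every library, and all counts of the 3 were whole numbers in the 8 files, as they are where no reads are split with a similar gene. Most genes share this trait: 1861 of the 24596 had a count that was not whole in at least 1 file. Together the 3 calgranulins took 0.247% of all counts in crossbred at day 0 (Wilson interval 0.244 to 0.251) and 0.233% at day 7 (0.230 to 0.236). In Tharparkar they took 0.227% at day 0 (0.224 to 0.231) and 0.195% at day 7 (0.191 to 0.199). By mean TPM (transcripts per 1000000, a level per unit of transcript length, which allows genes to be set against each other) S100A12 ranked between 73 and 113 of the 24596 genes over the 4 groups. S100A9 ranked between 110 and 136, and S100A8 between 115 and 126. S100A12 had the highest TPM of the 3 in every file.

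S100A8, the smaller partner in calprotectin, had TPM values of 1919 and 1915 in the 2 files of crossbred at day 0 and of 1693 and 1713 at day 7. In Tharparkar they were 1753 and 1754 at day 0 and 1633 and 1626 at day 7. The day 7 files lay below the day 0 files of the same breed without overlap, and the files of a group differed by at most 1.15%. Here and for the genes below, the files of a group count as 1 library. Their closeness does not measure the spread between libraries or animals. The highest group mean was 17.6% above the lowest, the smallest spread of the 3 genes.

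S100A9, the other partner, had TPM values of 1993 and 1994 in crossbred at day 0 and of 1691 and 1695 at day 7. In Tharparkar they were 1502 and 1508 at day 0 and 1460 and 1455 at day 7. Every crossbred file was above every Tharparkar file on this scale, and within each breed day 7 was below day 0. The log2 difference in TPM between Tharparkar and crossbred was -0.40 at day 0 and -0.22 at day 7. The median of all genes on this scale was itself at -0.21 and -0.22, so at day 7 S100A9 stood at that median. The highest group mean was 36.7% above the lowest.

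S100A12, a ligand of RAGE, had TPM values of 2796 and 2845 in crossbred at day 0 and of 2844 and 2857 at day 7. In Tharparkar they were 2521 and 2508 at day 0 and 1887 and 1891 at day 7. The crossbred files of both days overlapped, while Tharparkar at day 7 stood below all other files. The highest group mean was 50.9% above the lowest, the widest spread of the 3 genes. The deposited length of S100A12, an average over its annotated transcripts weighted by their estimated abundance, was between 507.75 and 520 bases over the files, and this average enters its TPM; the lengths of S100A8 (395 bases) and S100A9 (749 bases) were the same in every file.

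**Figure D1:**
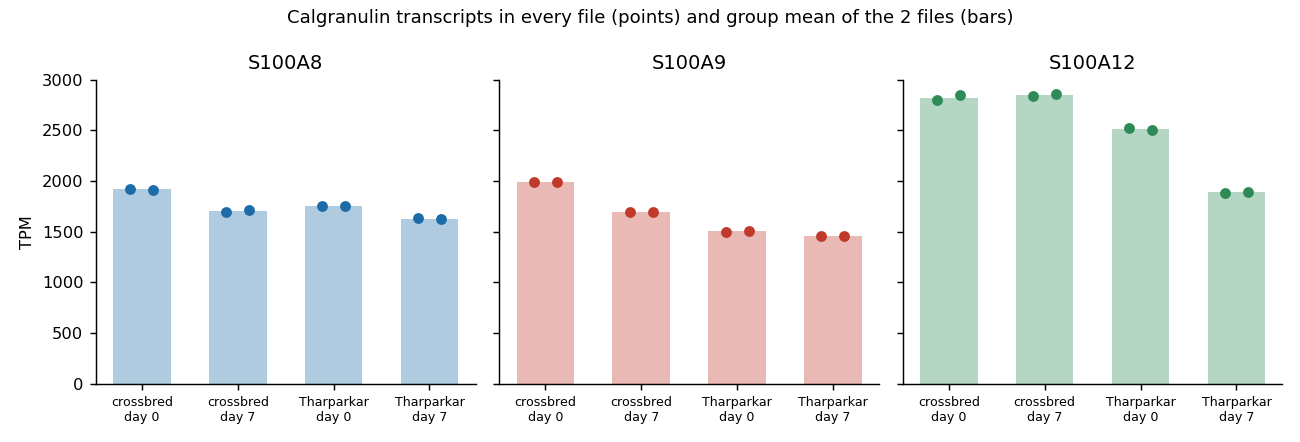
TPM (vertical axis, from 0) of S100A8, S100A9 and S100A12 in crossbred and Tharparkar cattle at day 0 and day 7. Points are the 2 files of a group and bars their mean; S100A12 in Tharparkar at day 7, at 1887 and 1891, lies below its other 6 files.

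To compare groups, counts were scaled to CPM (counts per 1000000) with TMM factors, which correct for differences in library composition. On this scale the order of S100A8 was Tharparkar day 0 at 470 CPM (Poisson interval 454 to 488), crossbred day 0 at 434 (420 to 448), Tharparkar day 7 at 412 (395 to 430) and crossbred day 7 at 361 (349 to 374). The intervals of crossbred day 0 and Tharparkar day 7 overlapped, and those of the other neighbours in the order did not. The order of S100A9 was crossbred day 0 at 1087 CPM (1066 to 1110), Tharparkar day 0 at 974 (949 to 998), Tharparkar day 7 at 891 (865 to 917) and crossbred day 7 at 866 (846 to 885), of which the last pair overlapped. The order of S100A12 was Tharparkar day 0 at 1001 CPM (976 to 1026), crossbred day 0 at 930 (909 to 950), crossbred day 7 at 905 (886 to 926) and Tharparkar day 7 at 701 (679 to 725), of which the middle pair overlapped. S100A12 was lowest in Tharparkar at day 7 on this scale and in mean TPM. For S100A8 and S100A9 the lowest group depended on the scale: crossbred at day 7 with TMM, but Tharparkar at day 7 in mean TPM, at 1630 against 1703 for S100A8 and 1458 against 1693 for S100A9.

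The first question was how calgranulin RNA changed over 7 days of heat. In Tharparkar S100A12 went from 1001 to 701 CPM, a log2 fold change of -0.51 (exact Clopper-Pearson interval -0.57 to -0.45), or 29.9% lower. S100A8 went from 470 to 412 CPM, a log2 fold change of -0.19 (-0.27 to -0.11), and S100A9 from 974 to 891 CPM, a log2 fold change of -0.13 (-0.18 to -0.07). The sizes of all 3 depended on the scaling. S100A8 was at -0.12 with total counts and -0.11 with TPM, and S100A9 at -0.06 and -0.05. S100A12 was at -0.446 with total counts and -0.413 with TPM, both closer to no change than its counting interval with TMM. With TMM all 3 values were below 0 and every interval excluded 0, but 0 of 3 genes passed an absolute log2 fold change of 1, where 8.27% of the 11711 genes tested did. A change at least as large as that of S100A12, in either direction, was seen in 28.6% of all genes, as large as that of S100A8 in 65.7% and as large as that of S100A9 in 76.0%. The median log2 fold change of the 3 was -0.19, against -0.01 over all genes.

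In crossbred cattle the genes of calprotectin were the ones that were lower. S100A9 went from 1087 to 866 CPM, a log2 fold change of -0.33 (-0.37 to -0.29), or 20.4% lower. S100A8 went from 434 to 361 CPM, a log2 fold change of -0.26 (-0.33 to -0.20). With total counts these were smaller, -0.21 for S100A9 and -0.15 for S100A8, and outside the counting intervals of the TMM values. S100A12 was at 930 and 905 CPM, a log2 fold change of -0.04 (-0.08 to 0.01) whose interval included 0, and its sign turned to 0.08 with total counts, 0.02 with TPM and 0.04 with FPKM, where the medians of all genes were 0.12, 0.09 and 0.10. Again 0 of 3 genes passed 1 log2 unit, beside 12.8% of all genes. Changes as large as those of S100A9 and S100A8 were found in 55.6% and 63.4% of genes. The median of the 3 was -0.26, against 0.00 over all genes.

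Together the 3 genes went from 2445 to 2004 CPM in Tharparkar, a log2 fold change of -0.29 (-0.32 to -0.25), and from 2451 to 2132 CPM in crossbred, a log2 fold change of -0.20 (-0.23 to -0.17). With total counts in place of TMM these were -0.22 and -0.09. The summed level was thus lower at day 7 in both breeds under both scalings, and the gene with the largest difference in CPM was S100A12 in Tharparkar and S100A9 in crossbred.

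**Figure D2:**
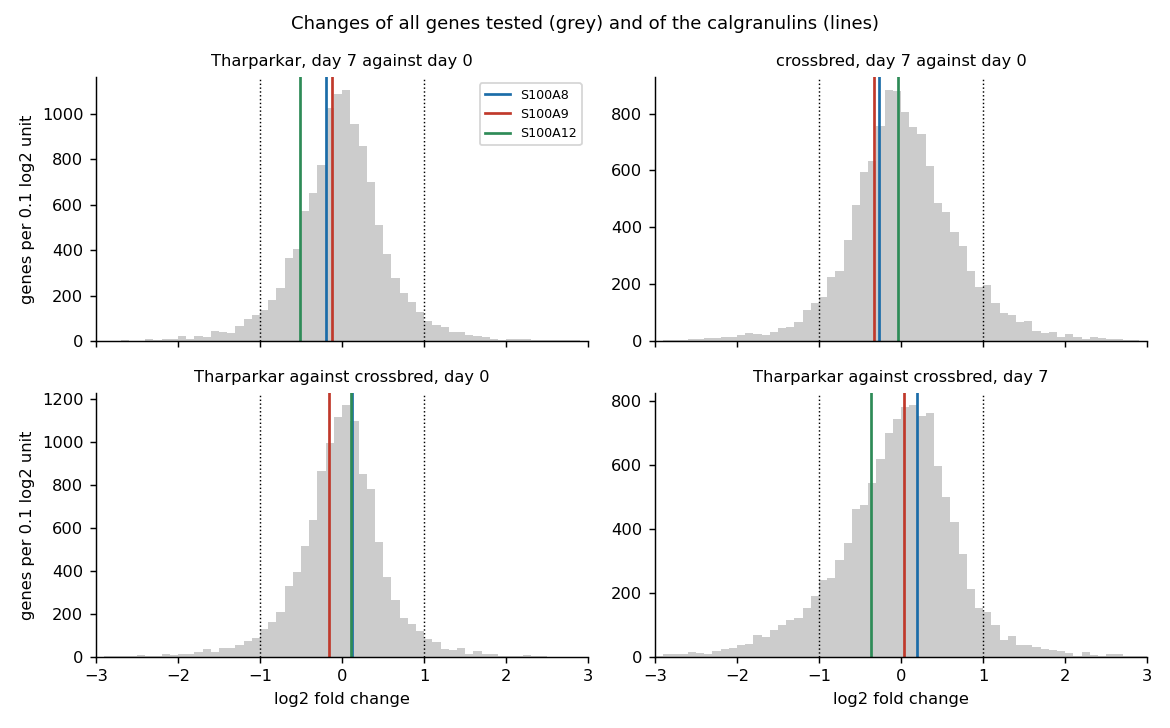
Number of genes (vertical axis) by log2 fold change (horizontal axis, bins of 0.1) over the 11711 genes tested, in 4 comparisons, with the calgranulins as coloured lines and dotted lines at a log2 fold change of 1 in either direction. In each comparison the 3 calgranulins lie between the dotted lines, within the bulk of all genes; where 2 lines coincide (S100A8 and S100A12 before heat, at 0.12 and 0.11) only 1 is seen.

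The series set out to ask whether the breeds respond differently, so the day 7 change in crossbred was subtracted from that in Tharparkar. For S100A12 the difference was -0.47 (interval from the counts -0.55 to -0.40), a more negative change in Tharparkar. For S100A9 it was 0.20 (0.13 to 0.27), a more negative change in crossbred. For S100A8 it was 0.07 (-0.03 to 0.18), and the interval included 0. None of the 3 differences reached 1 log2 unit, which 27.0% of all genes did, and a difference as large as that of S100A12 was seen in 57.1% of genes. The sign of each of the 3 was the same under all 18 alternatives run. Many of these could hardly turn it, such as those without single files, since the files of a group are nearly alike. With total counts the differences were -0.52 for S100A12, 0.15 for S100A9 and 0.03 for S100A8.

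Between the breeds before heat, S100A9 was at 974 CPM in Tharparkar and 1087 in crossbred, a log2 difference of -0.16 (-0.21 to -0.11), or 10.5% lower in Tharparkar. This one was negative under every alternative, down to -0.40 with TPM. S100A8, at 470 and 434 CPM, had a log2 difference of 0.12 (0.05 to 0.19), and S100A12, at 1001 and 930 CPM, one of 0.11 (0.06 to 0.15). Both of these turned below 0 with total counts, FPKM and TPM, to -0.13 and -0.17 with TPM, so their direction depends on the scaling; the median of all genes was itself at -0.21 with TPM. No calgranulin passed 1 log2 unit, which 7.02% of all genes did.

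At day 7 S100A12 was at 701 CPM in Tharparkar and 905 in crossbred, a log2 difference of -0.37 (-0.43 to -0.31), or 22.5% lower in Tharparkar, and between -0.59 and -0.365 under the alternatives. S100A8, at 412 and 361 CPM, had a log2 difference of 0.19 (0.11 to 0.27), which was 0.02 with total counts, 0.03 with FPKM and turned to -0.06 with TPM. S100A9, at 891 and 866 CPM, had one of 0.04 (-0.01 to 0.09), which turned to -0.13 with total counts, -0.12 with FPKM and -0.22 with TPM, where the median of all genes was also -0.22. Here too 0 of 3 passed 1 log2 unit, beside 14.9% of all genes.

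**Figure D3:**
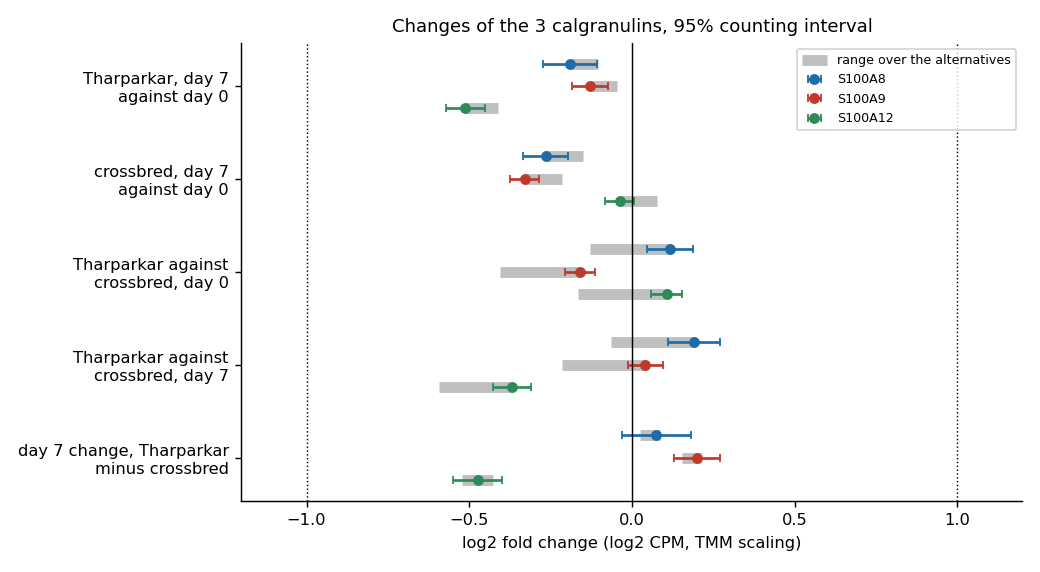
Log2 fold change (horizontal axis) of S100A8, S100A9 and S100A12 in the 5 comparisons; points are the values with TMM scaling, bars their 95% counting intervals, grey bands the range over the 18 alternatives, and dotted lines a log2 fold change of 1 in either direction. The bands of the day 7 changes lie below 0 except that of S100A12 in crossbred, and 4 of the 6 bands of the breed comparisons at single days cross 0.

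Ratios between the calgranulins within a library need no scaling between libraries. S100A12 to S100A9 was 0.855 in crossbred at day 0 (interval 0.830 to 0.881) and 1.05 at day 7 (1.01 to 1.08), as a ratio of expected counts. In Tharparkar it was 1.03 at day 0 (0.992 to 1.06) and 0.788 at day 7 (0.754 to 0.823). The ratio was thus higher at day 7 in crossbred, by 0.29 on the log2 scale (0.23 to 0.35), and lower at day 7 in Tharparkar, with a log2 change of -0.38 (-0.47 to -0.30). Crossbred at day 7 and Tharparkar at day 0 had overlapping intervals, and single files stayed close to their group: 0.852 and 0.858 in crossbred at day 0, 1.04 and 1.05 at day 7, and 1.03 and 1.02, then 0.787 and 0.789, in Tharparkar.

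The S100A12 to S100A8 ratio ran the same way over the days, with S100A12 shared by both ratios. It was 2.14 and 2.51 in crossbred at day 0 and day 7, a log2 change of 0.23 (0.14 to 0.31). It was 2.13 and 1.70 in Tharparkar, a log2 change of -0.32 (-0.42 to -0.22). Between Tharparkar and crossbred the log2 difference in this ratio was -0.01 (-0.10 to 0.07) before heat and -0.56 (-0.66 to -0.46) at day 7.

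The S100A8 to S100A9 ratio, between the partners of calprotectin, separated the breeds rather than the days. It was 0.399 (0.384 to 0.414) and 0.417 (0.400 to 0.435) in crossbred at day 0 and day 7. It was 0.483 (0.462 to 0.505) and 0.463 (0.439 to 0.488) in Tharparkar. The log2 difference between Tharparkar and crossbred was 0.28 (0.19 to 0.36) at day 0 and 0.15 (0.05 to 0.25) at day 7, while the log2 changes over the days, -0.06 (-0.16 to 0.04) in Tharparkar and 0.06 (-0.02 to 0.15) in crossbred, had intervals that included 0. Per unit of length, S100A8 and S100A9 stood close to parity: the ratio of their TPM was 0.962 and 1.01 in crossbred and 1.17 and 1.12 in Tharparkar, at day 0 and day 7. The ratio of S100A12 to S100A9 in TPM was 1.42 and 1.68 in crossbred and 1.67 and 1.30 in Tharparkar.

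**Figure D4:**
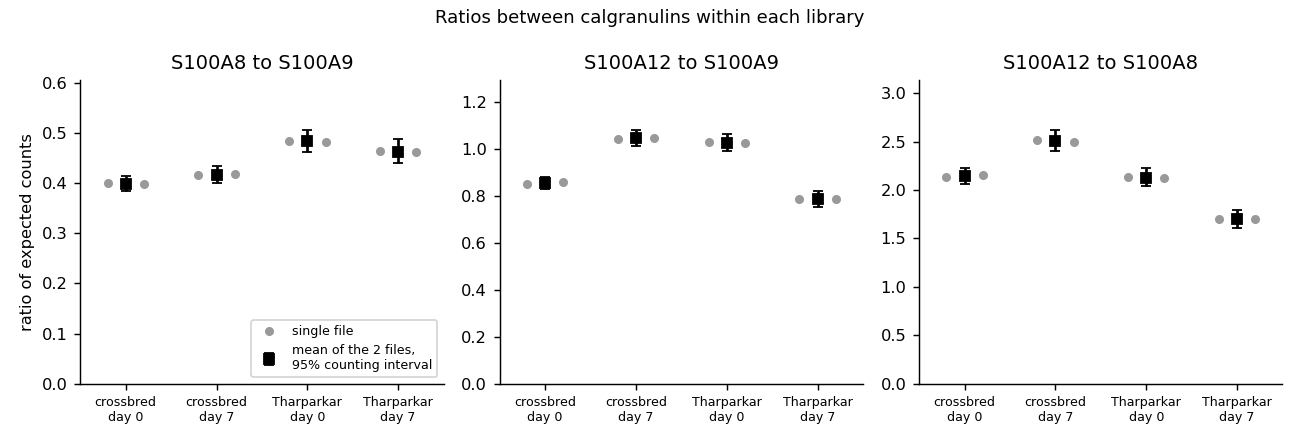
Ratio of expected counts between pairs of calgranulins (vertical axes, from 0) in the 4 groups; squares are the mean of the 2 files with the 95% counting interval and grey points the single files. The S100A8 to S100A9 ratio is higher in both Tharparkar groups, while S100A12 to S100A9 is highest, at 1.05 and 1.03, in crossbred at day 7 and in Tharparkar at day 0, and lowest, at 0.788, in Tharparkar at day 7.

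Likeness of profile was measured as the root mean square distance between log2 CPM values centred over the 4 groups, among genes with a mean of at least 10 CPM. The calgranulins were not each other's nearest genes. S100A9 was at rank 685 of 7831 genes from S100A8, at a distance of 0.11, and S100A12 at rank 2750, at 0.20. From S100A9, S100A12 was at rank 1962, at 0.17. Ranked from S100A12, S100A9 was at rank 1089 and S100A8 at rank 1599. The gene nearest to S100A8 was ENSBTAG00000010336, at a distance of 0.0093 log2 units, with 530, 439, 566 and 497 CPM in crossbred at day 0 and day 7 and Tharparkar at day 0 and day 7. The gene nearest to S100A12 was ENSBTAG00000007300, at 0.011, with 62.9, 60.5, 66.6 and 47.5 CPM in the same order. The tables give no symbol for either, and the profiles rest on only 4 groups. The range of log2 CPM over the groups was 0.38 for S100A8, 0.33 for S100A9 and 0.51 for S100A12, and 26.3%, 19.0% and 45.0% of these genes had a range as small or smaller.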

How the data were processed

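RNA of mononuclear blood cells was sequenced on an Illumina NextSeq, per the labels' protocols. The submitters' processing notes name Bowtie2 and RSEM, with no version; genome build, annotation release and filters are not given in the sources used here. The authors deposited expected counts, TPM, FPKM and gene lengths for each file. The RefSeq table of assembly ARS-UCD2.0 used here lists no Ensembl identifiers, so 0 of the 24596 identifiers could be paired with a symbol through it, and all gene lists, which are lists of symbols, were left out, as were promoter and protein sequences, which were not used here.

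From the deposited expected counts, the mean of the 2 files of a group was taken as 1 library, since their chi-square ratio (genes with at least 20 counts) was below 1.5. edgeR 4.0.16 in R 4.3.3 gave the 11711 genes of filterByExpr, TMM factors between 0.930 and 1.09, and log2 CPM with a prior count of 2. A gene counted as called at an absolute log2 fold change of 1. Intervals are exact Clopper-Pearson for ratios of 2 counts, Poisson for CPM, Wilson for shares, and normal on the log scale for differences of changes and for changes of ratios; reads carry no molecular identifiers.

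With 1 library per group no p-values are given. The deposited TPM and FPKM, as log2 of the value plus 1, served as alternatives, beside DESeq2 1.42.0, other filters and single files. The steps were tested on simulated counts. The named genes are the 3 calgranulins and, for each, the nearest profiles among genes with a mean of at least 10 CPM, of which 2 identifiers are printed. The members, lists and rules were chosen with earlier results of these data known.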

Additional observations from a re-analysis of the deposited data

Results flagged for a closer look

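Some effects ran one way in 1 breed or day and the opposite way in the other, on the scales named here. They were picked because every single file gave the same directions. The files of a group are nearly alike and count as 1 library, so their agreement adds no weight to the group values. None of these opposite effects was tested, and with 1 pool per group only counting error is known.

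The S100A12 to S100A9 ratio had a log2 change over the days of -0.38 in Tharparkar and 0.29 in crossbred, a difference of -0.68. Read between breeds, the same 4 values gave a log2 difference of -0.41 at day 7 and 0.27 at day 0, again -0.68 apart. The S100A12 to S100A8 ratio had log2 changes of -0.32 and 0.23, a difference of -0.55. The S100A8 to S100A9 ratio had log2 changes of -0.06 and 0.06, a difference of -0.13, and the counting interval of each of these changes included 0.

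On the scale of single genes with TMM, here as means of the log2 values of single files and not from mean counts as in the report (where the same difference of S100A12 is -0.47), the breed difference of S100A12 was -0.37 at day 7 and 0.11 at day 0, which are -0.48 apart. That of S100A9 was 0.04 at day 7 and -0.16 at day 0, which are 0.20 apart, and the counting interval of its day 7 value, -0.01 to 0.09, included 0. In TPM every Tharparkar file of S100A9 was below every crossbred file on both days. The positive value of each turned below 0 with total counts, TPM and FPKM, scalings that also moved the median of all genes below 0. Relative to that median S100A12 at day 0 was at 0.10, 0.04 and 0.06, and S100A9 at day 7 at 0.03, -0.00022 and 0.01, in the same order. Scaling between libraries does not enter the ratios of counts.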

How the results depend on the processing

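The number of calgranulins past 1 log2 unit was 0 of 3 in each of the 5 comparisons and under each of the 18 alternatives, including the fits with files as replicates, where no calgranulin met the fold limit whatever its p. Of 15 changes of single genes, 10 had the same sign under all alternatives. The settings without single files could hardly differ, since the files of a group are nearly alike. The 13 values whose sign turned came from total counts, TPM and FPKM, which moved the median log2 difference of all genes by up to -0.16, -0.22 and -0.14 between the breeds, and total counts moved it by 0.11 in crossbred over the days. Relative to the median of all genes on the same scale, 12 of the 13 had the sign reported with TMM. The other, S100A9 between breeds at day 7 with TPM, had -0.00022 against that median. Total counts shift all genes of a comparison alike, so for the values with total counts this sign was fixed by the scaling. TPM and FPKM come from the same counts and, for genes of constant length such as S100A8 and S100A9, mostly rescale each library. A shared sign on those scales therefore carries little weight too. Leaving out single files moved the S100A12 change between -0.514 and -0.509 in Tharparkar and between -0.04 and -0.03 in crossbred.

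Treating the 2 files of a group as replicates compares libraries, not conditions. With edgeR's quasi-likelihood fit and the replicate number as a block (replicate block), the log2 change of S100A12 was -0.51 for Tharparkar and -0.04 for crossbred, the same to 2 decimals as without the block. The deviations of same-numbered files correlated between groups by 0.02 to 0.18 across 7766 genes. Whether same-numbered files share more than a number was not tested. The share of all genes past the limit was between 1.96% and 10.2% in Tharparkar, 4.95% and 13.9% in crossbred, 1.59% and 8.63% between breeds at day 0, 6.07% and 16.5% at day 7, and 10.3% and 28.3% for the difference of the changes. The lowest in each case came from DESeq2 with files as replicates, which also asks for an adjusted p under 0.05 and was run without a filter on low counts. The counts of genes were lowest with a mean CPM of at least 10, at 280, 573, 221, 708 and 1556 in that order, and highest without a filter, at 1624, 2022, 1368, 2418 and 4294, because these filters change which genes are tested.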
